A study of Homo sapiens with 12 samples.

Results

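The 28 genes described here encode enzymes of cholesterol synthesis, the sensors that control them, proteins of cholesterol uptake and transfer, and proteins of the export side. They were chosen by symbol from the table of the libraries labelled DU145 and by the same Ensembl identifier in the table labelled C4-2, and all 28 were found in both, out of 56747 identifiers that both tables list. By role they comprised 18 synthesis enzymes, 4 sensing proteins (SREBF2, INSIG1, INSIG2 and SCAP), 3 proteins of uptake and transfer (STARD4, NPC1 and NPC2) and 3 of the export side (ABCA1, ABCG1 and MYLIP). Human prostate cancer cell lines were treated with palbociclib, an inhibitor of the kinases CDK4 and CDK6, or with its solvent DMSO, and total RNA was made into directional sequencing libraries. The groups were DU145 with palbociclib (3 libraries), DU145 with DMSO (3 libraries), C4-2 with palbociclib (3 libraries) and C4-2 with DMSO (2 libraries, since the third held no counts). The culture medium of all groups was RPMI-1640 with 10% fetal bovine serum, which supplies lipoproteins. How much palbociclib was given, and for how long, is not stated in the sources used here. DU145, from a brain metastasis, is known to lack functional RB1, a protein that CDK4 and CDK6 inactivate, and C4-2 descends from the LNCaP line and grows without androgen. Whether a group's libraries are separate cultures is not stated, and p-values here cover the spread among them, which may be technical.

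Cells make cholesterol from acetyl-CoA by way of mevalonate, squalene and lanosterol. When membrane sterol is low, SCAP carries the transcription factor precursors of the SREBP family out of the endoplasmic reticulum to be cut, and SREBP2, the product of SREBF2, then drives the synthesis and uptake genes. When sterol is high, INSIG proteins hold SCAP back, and oxysterols activate the nuclear receptor LXR, which drives the exporters ABCA1 and ABCG1 and MYLIP, a ubiquitin ligase that marks lipoprotein receptors for degradation. The synthesis and export arms are thus known for opposite sterol control.

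The libraries labelled DU145 held 16108999 to 16674393 counts each and those labelled C4-2 2608851 to 3489659, so the same gene was counted less precisely in the second set. The luminal prostate genes KLK3, KLK2 and FOLH1 had 0 counts in the libraries of both labels. TMPRSS2 was also at 0 in DU145, with 8 counts in all of C4-2, and ACP3 had 9 counts in all of DU145 and was at 0 in C4-2. HOXB13 averaged 6.81 ± 1.37 CPM (counts scaled by library total; SD, n = 6) in DU145 and 0.669 ± 0.622 CPM (n = 5) in C4-2, and FN1, fibronectin, averaged 30.1 ± 8.5 CPM in DU145 and 19670 ± 1109 CPM in C4-2. Luminal transcripts at or near 0 go against the label C4-2, so the groups are called by their labels, and what is known of a line applies only as far as its label does. Summed epithelial markers (KRT8, KRT18, KRT7, CDH1 and EPCAM) were 2068 to 2213 CPM with palbociclib and 3221 to 3563 CPM with DMSO in DU145. In C4-2 these were 412 to 447 CPM with palbociclib and 1045 to 1053 CPM with DMSO. Both epithelial sums were almost all keratin. In DU145, KRT8, KRT18 and KRT7 averaged 1524, 523.5 and 691 CPM, while CDH1 and EPCAM had 147 and 87 counts in all. In C4-2, KRT8 and KRT18 averaged 565.6 and 108.9 CPM, while KRT7, CDH1 and EPCAM had 29, 7 and 18 counts in all. Summed mesenchymal markers, 8 genes of which LUM was at 0 in DU145, were 320 to 334 CPM with palbociclib and 365 to 376 CPM with DMSO in DU145. In C4-2 they were 22850 to 23160 CPM with palbociclib and 25420 to 25490 CPM with DMSO. The DU145 sum was mostly VIM (279 CPM). The C4-2 sum was mostly FN1, with COL1A2, COL3A1, DCN and LUM averaging 0.118 to 2.69 CPM. The part of these markers in the changes below was not tested.

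In DU145, palbociclib raised nearly the whole route of cholesterol synthesis together with uptake and transfer genes, and lowered both ABC exporters. Of the 28 genes, all of them tested, 22 rose and 4 fell (edgeR quasi-likelihood test, Benjamini-Hochberg adjusted p under 0.05 over all genes), while 58.1% of all 15361 tested genes were called, with 28.8% of the tested genes higher and 29.2% lower. The median log2 fold change, palbociclib over DMSO, was 0.57 over the 28 genes and -0.01 over all tested genes. The synthesis enzymes rose in 15 of 18 cases, with a median of 0.63. Without both libraries numbered 3, which stood apart from the other replicates, the counts were again 22 and 4. In bulk RNA, a change in the share of cells of a type and a change in RNA per cell cannot be told apart.

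The enzymes from acetyl-CoA to squalene rose in 6 of 8 cases in DU145, and the other two were not called. MVK, mevalonate kinase (chr12:109573255-109598117, hg38), was at 101, 101 and 115 CPM with palbociclib and at 40.3, 45.8 and 48.1 CPM with DMSO, a change of 1.26 in log2 (SE 0.08, adjusted p = 1.17e-09). HMGCS1, the HMG-CoA synthase at the head of the mevalonate route, was at 329, 328 and 294 CPM with palbociclib and at 165, 173 and 157 CPM with DMSO (log2 fold change 0.97, SE 0.07). The lowest palbociclib library exceeded the highest DMSO library by a wide gap for both genes. MMAB, whose span overlaps that of MVK on the other strand, rose too (0.33, SE 0.08, adjusted p = 0.00188). Whether the DU145 counting used strand is not known, so reads of MVK and MMAB may not be fully separated. MVD, mevalonate diphosphate decarboxylase, rose by 0.83 (SE 0.09), IDI1, the isopentenyl diphosphate isomerase, by 0.52 (SE 0.08), and FDFT1, squalene synthase, by 0.46 (SE 0.06). ACAT2, the cytosolic thiolase, was at 139, 131 and 116 CPM with palbociclib and at 98.3, 103 and 102 CPM with DMSO (log2 fold change 0.37, SE 0.07, adjusted p = 0.00029). It rose least of the called enzymes of this stretch, with no overlap between groups. PMVK, phosphomevalonate kinase, had a change of -0.10 (adjusted p = 0.353) and FDPS, farnesyl diphosphate synthase, one of 0.00 (adjusted p = 0.991), with FDPS at 136 to 138 CPM with palbociclib and 138 to 142 CPM with DMSO.

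The enzymes from squalene to cholesterol rose in 9 of 10 cases in DU145. SC5D, a sterol desaturase, had the largest rise of these, at 82.4, 85.5 and 67.5 CPM with palbociclib and 36.6, 43.1 and 36.5 CPM with DMSO (log2 fold change 1.04, SE 0.09, adjusted p = 4.68e-08). HSD17B7, a sterol ketone reductase (0.96, SE 0.10), LSS, lanosterol synthase (0.87, SE 0.07), MSMO1, the sterol methyl oxidase (0.86, SE 0.08), and DHCR7, the reductase of a final step (0.81, SE 0.07), followed. LSS was at 255, 267 and 295 CPM with palbociclib and 151, 141 and 162 CPM with DMSO. MSMO1 was at 140, 134 and 116 CPM with palbociclib and 73.1, 78 and 67 CPM with DMSO. Both genes were separated by treatment in every library, and for LSS replicate 3 was the highest of each group. CYP51A1, lanosterol demethylase (0.67), EBP, a sterol isomerase (0.59), SQLE, the squalene epoxidase (0.55), and NSDHL, a sterol dehydrogenase (0.46), rose less. TM7SF2, a sterol reductase for which another reductase of the nuclear envelope can substitute, was the exception and fell, with 61, 51 and 65 counts with palbociclib and 105, 81 and 92 with DMSO (log2 fold change -0.66, SE 0.18, adjusted p = 0.00397). Its span overlaps, on the same strand, that of VPS51, which fell too (-0.34, adjusted p = 0.00282), so reads of the 2 genes may be split between them. HSD17B7 has a near-identical pseudogene copy, HSD17B7P2, so its counts are uncertain to that extent.

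Among the sensing genes in DU145, INSIG1, itself a target of SREBP2, rose to 184, 176 and 179 CPM with palbociclib, against 105.7, 107.1 and 100.2 CPM with DMSO (log2 fold change 0.81, SE 0.06, adjusted p = 7.8e-09). SREBF2 (0.22, SE 0.07, adjusted p = 0.00739) and SCAP (0.20, SE 0.07, adjusted p = 0.0265) rose by small amounts. INSIG2, the second INSIG protein, fell by 0.28 (SE 0.11, adjusted p = 0.0346), with 25.8, 23.8 and 20.6 CPM under palbociclib and 28.2, 32.8 and 25.4 CPM under DMSO, groups that overlapped. The calls of these last 3 genes were not stable: over 13 alternatives the adjusted p reached 0.0535 for SREBF2 (without DMSO replicate 1), 0.155 for SCAP (without DMSO replicate 2) and 0.195 for INSIG2 (change of -0.18 without DMSO replicate 2 and -0.19 without palbociclib replicate 3).

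All 3 uptake and transfer genes rose in DU145. NPC1, the lysosomal membrane protein that hands cholesterol out of the lysosome, was at 170, 172 and 176 CPM with palbociclib and 94.3, 93.7 and 96.5 CPM with DMSO (log2 fold change 0.89, SE 0.06, adjusted p = 2.76e-09). Its soluble partner NPC2 rose by 0.78 (SE 0.07), to 169 to 186 CPM with palbociclib, against 104 to 112 CPM with DMSO. The sterol carrier STARD4 rose by 0.52 (SE 0.08), to 79.1 to 95.1 CPM with palbociclib, against 56.6 to 67.1 CPM with DMSO. Each of these genes overlaps a gene on the other strand (RMC1, ISCA2 and STARD4-AS1, with changes of 0.32, 0.24 and -0.92), and whether the counting used strand is not known for this table.

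The export side was split in DU145. ABCA1, the transporter that loads cholesterol onto apolipoproteins (chr9:104781002-104928237), had 37, 38 and 30 counts with palbociclib and 83, 76 and 61 with DMSO, and fell by 1.07 in log2 (SE 0.21, adjusted p = 0.000314). ABCG1, which passes cholesterol to high-density lipoprotein, was at 28.2, 27.3 and 27.5 CPM with palbociclib and 34.4, 33.4 and 36.5 CPM with DMSO (log2 fold change -0.31, SE 0.08, adjusted p = 0.00486). MYLIP went the other way, at 13.4, 13.9 and 12 CPM with palbociclib and 9.31, 7.37 and 9.33 CPM with DMSO (0.62, SE 0.13, adjusted p = 0.000492). None of the 3 genes overlapped between groups, a pattern seen as higher in 29.4% and as lower in 33.4% of all tested genes. Set side by side, the 25 synthesis, sensing and uptake genes had a median of 0.59, with 21 higher and 2 lower, and the 3 export genes a median of -0.31, with 1 higher and 2 lower. ABCA1 was scarce in these libraries, averaging 2.11 ± 0.27 CPM under palbociclib and 4.53 ± 0.73 CPM under DMSO (SD, n = 3 each).

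**Figure D1:**
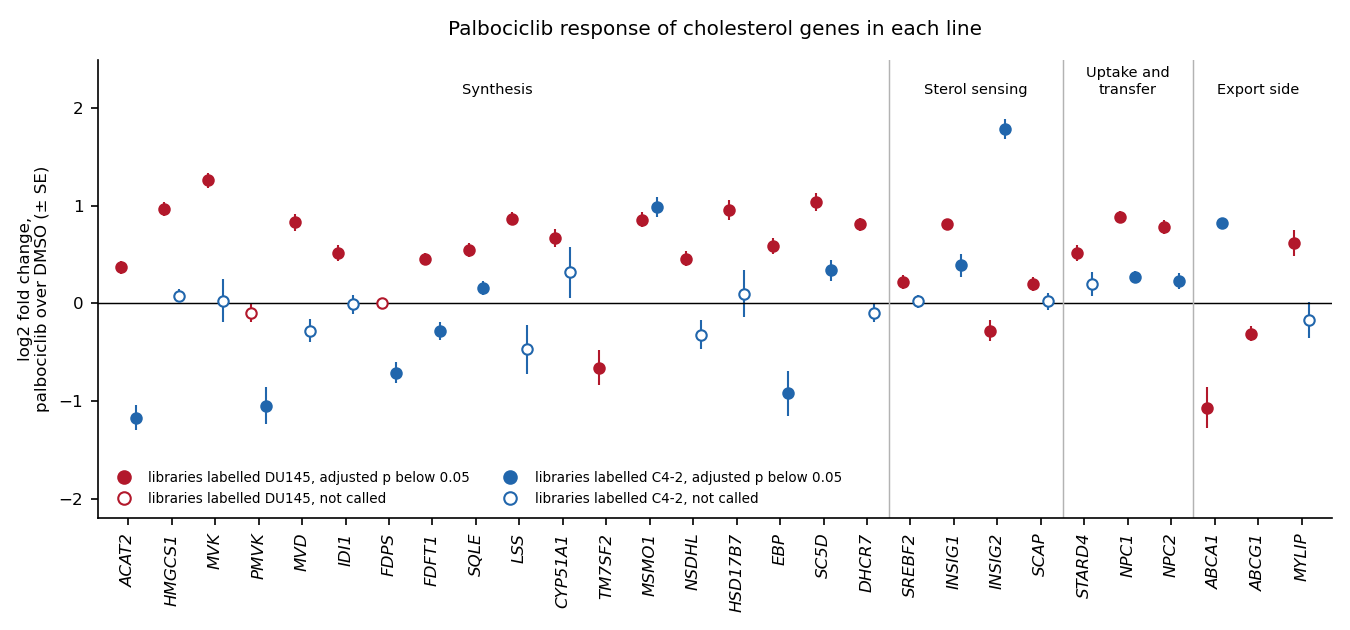
Log2 fold change (palbociclib over DMSO, edgeR, ± SE) of the 28 genes in pathway order, for libraries labelled DU145 (red) and C4-2 (blue); filled points passed an adjusted p of 0.05. Red synthesis and uptake points lie mostly above 0 and blue ones on both sides, while ABCA1 and INSIG2 are below 0 in DU145 and above it in C4-2; TM7SF2 and ABCG1 were too low to test in C4-2.

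Promoter sequences are shown for 4 members, picked after their motif matches were seen, because their windows hold letter matches to elements of sterol control. SREBF2 is the member with a match to the stricter sterol element, and MVK and MSMO1 hold matches to the looser one. ABCA1 stands for the export side. They are RefSeq windows of GRCh38.p14 from 250 bases before to 50 bases from the start site, written 5′ to 3′ on the gene's strand, which is plus for SREBF2 (chr22:41832855-41833154), MVK (chr12:109573544-109573843) and MSMO1 (chr4:165327419-165327718) and minus for ABCA1 (chr9:104928106-104928405). Capitals mark sterol elements, NF-Y boxes (CCAAT or its complement ATTGG) and, in ABCA1, an LXR-type repeat.
SREBF2: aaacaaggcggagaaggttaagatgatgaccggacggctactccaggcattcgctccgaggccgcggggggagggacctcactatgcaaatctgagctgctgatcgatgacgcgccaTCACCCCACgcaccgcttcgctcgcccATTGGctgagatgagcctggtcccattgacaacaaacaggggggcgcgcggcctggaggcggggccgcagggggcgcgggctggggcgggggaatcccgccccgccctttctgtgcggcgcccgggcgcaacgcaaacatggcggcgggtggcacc
MVK: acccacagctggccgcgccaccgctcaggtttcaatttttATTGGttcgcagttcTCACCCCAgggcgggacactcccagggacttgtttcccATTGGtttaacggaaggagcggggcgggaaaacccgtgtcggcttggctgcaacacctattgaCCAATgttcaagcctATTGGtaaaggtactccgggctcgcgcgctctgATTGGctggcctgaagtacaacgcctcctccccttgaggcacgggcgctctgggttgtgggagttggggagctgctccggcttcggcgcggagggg
MSMO1: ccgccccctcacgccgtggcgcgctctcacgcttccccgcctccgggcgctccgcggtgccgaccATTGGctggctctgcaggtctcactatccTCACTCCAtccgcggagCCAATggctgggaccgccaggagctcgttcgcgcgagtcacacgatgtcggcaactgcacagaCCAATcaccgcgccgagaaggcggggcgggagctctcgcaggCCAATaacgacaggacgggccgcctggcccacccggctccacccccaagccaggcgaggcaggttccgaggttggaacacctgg
ABCA1: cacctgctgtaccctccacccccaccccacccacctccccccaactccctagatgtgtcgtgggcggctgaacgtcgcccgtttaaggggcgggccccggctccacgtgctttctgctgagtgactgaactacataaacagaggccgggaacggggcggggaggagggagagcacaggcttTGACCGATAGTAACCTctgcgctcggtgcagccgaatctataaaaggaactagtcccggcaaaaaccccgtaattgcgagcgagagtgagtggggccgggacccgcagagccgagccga

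Windows were found for 24 of the 28 genes (31 windows), and matches on both strands were counted per gene. The sterol element TCACNCCAC was in 1 of the 24, SREBF2, at position -133 from the start, against 1.39% of 27305 genes with a window. The looser TCACNNCA, which every match of the stricter one also meets, was in 3 of 24 (SREBF2, MVK at -195 and MSMO1 at -156), against 15.1% of all genes. The looser sterol element was thus no more frequent among the members than over all genes. The NF-Y box CCAAT was in 18 of 24, against 39.7% of all genes, including 13 of 15 synthesis genes, 2 of 4 sensing, 2 of 3 uptake and 1 of 2 export genes. MVK held 5 NF-Y boxes and MSMO1 held 4. The Sp1 box GGGCGG was in 23 of 24, against 48.3%. The shares over all genes were not limited to protein-coding or expressed genes, whereas the members are all protein-coding. This count therefore cannot tell whether the NF-Y and Sp1 contrasts are particular to the pathway. The LXR-type repeat, AGGTCA followed after 4 bases by AGGTCA, had no match in the 24, against 0.0256% of all genes. A looser form, AGGTNA followed after 4 bases by NGGTCA, was chosen after the ABCA1 window had been read. It was in ABCA1 at -69 on the opposite strand, against 0.121% of all genes. A match is a description of these letters and does not show that a factor binds there.

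In the libraries labelled C4-2 the same genes showed no common direction. Of 26 tested, 8 rose and 5 fell, beside 51.8% of all 11943 tested genes called, with 25.2% of the tested genes higher and 26.6% lower, and the median log2 fold change was 0.03 over the tested members and 0.00 over all genes. The few called falls lay mostly in the first stretch of the route, with EBP as the later exception. Called rises were among later enzymes, the INSIG and NPC genes and ABCA1. Of the later enzymes called higher, only MSMO1 kept its call under all 11 alternatives, and SQLE and SC5D did not. INSIG1, NPC2, FDFT1 and EBP also lost theirs under at least 1 alternative. Without DMSO replicate 1, or with DESeq2, 4 rose. From acetyl-CoA to squalene 4 of 8 enzymes fell and the other 4 were not called, and from squalene to cholesterol 3 of 9 tested enzymes rose and 1 fell.

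ACAT2 fell most of the synthesis enzymes in C4-2, with 21.5, 29.5 and 24 CPM under palbociclib and 57.9 and 49.7 CPM under DMSO (log2 fold change -1.17, SE 0.13, adjusted p = 1.86e-10). PMVK was at 13.8, 15.3 and 7.99 CPM with palbociclib and 24.1 and 24.5 CPM with DMSO (-1.05, SE 0.19, adjusted p = 1.37e-05). FDPS followed, at 37.7, 31.1 and 36.1 CPM with palbociclib and 54.5 and 57 CPM with DMSO (-0.71, SE 0.11, adjusted p = 9.39e-07). All palbociclib libraries lay below both DMSO libraries for these 3 genes. Of the 26 tested members 11 had higher and 7 lower CPM with palbociclib without overlap, against 35.8% and 30.3% of all tested genes. The ACAT2 span overlaps on the opposite strand that of TCP1, a chaperonin subunit, which changed by 0.24 (adjusted p = 0.00432) in DU145 and by -0.58 (adjusted p = 2.07e-15) in C4-2, and counting without strand in C4-2 cannot fully separate them. EBP fell by 0.92 (SE 0.23, adjusted p = 0.000694) on 33, 20 and 29 counts with palbociclib and 46 and 64 with DMSO, and without DMSO replicate 2 its change was -0.57 (adjusted p = 0.0905). FDFT1 fell by 0.28 (adjusted p = 0.0117), a call lost under 4 of 11 alternatives (adjusted p up to 0.155).

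MSMO1 rose in C4-2 as well, at 71.3, 70.2 and 76.4 CPM with palbociclib and 35.8 and 35.1 CPM with DMSO (log2 fold change 0.99, SE 0.10, adjusted p = 1.01e-10). SC5D (0.34, SE 0.11, adjusted p = 0.0117) and SQLE (0.16, SE 0.07, adjusted p = 0.0415) were also called higher. HMGCS1 was at 117, 115 and 116 CPM with palbociclib and 104 and 109 CPM with DMSO, and its change of 0.08 (adjusted p = 0.368) did not pass. MVK, the largest riser of DU145, had 32, 41 and 39 counts with palbociclib and 44 and 34 with DMSO (0.03, SE 0.22, adjusted p = 0.922). MVD, IDI1, LSS, CYP51A1, NSDHL, HSD17B7 and DHCR7 were not called either, with changes of -0.47 to 0.32. NSDHL varied with the DMSO library left out, at -0.55 (adjusted p = 0.0114) without replicate 1 and -0.10 (adjusted p = 0.716) without replicate 2, beside -0.32 with both. LSS had 23, 26 and 20 counts with palbociclib and 38 and 30 with DMSO. MMAB, which overlaps MVK on the other strand, had a change of -0.41 (adjusted p = 0.0848), and its reads cannot be told apart from those of MVK where the spans meet.

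INSIG2 showed the largest response of all members in C4-2. It was at 124, 108 and 114 CPM with palbociclib and at 30.9 and 33.5 CPM with DMSO, a 3.47-fold rise (log2 fold change 1.79, SE 0.10, adjusted p = 2.18e-19; chr2:118088452-118110997). INSIG1 rose by 0.39 (SE 0.12, adjusted p = 0.00413), with 49.5, 46.4 and 45.9 CPM under palbociclib and 33.5 and 36.1 CPM under DMSO. SREBF2 (0.02, adjusted p = 0.869) and SCAP (0.02, adjusted p = 0.853) did not pass the test.

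NPC1 was abundant in C4-2, at 245, 235 and 259.6 CPM with palbociclib and 204 and 192 CPM with DMSO (log2 fold change 0.27, SE 0.06, adjusted p = 6.59e-05). NPC2 was called higher by 0.23 (SE 0.08, adjusted p = 0.0193) and STARD4 had a change of 0.20 (adjusted p = 0.156). ABCA1 rose to 254, 225 and 239.5 CPM with palbociclib, against 129 and 135 CPM with DMSO (0.82, SE 0.06, adjusted p = 3.63e-15). ABCG1 had 0 counts in each palbociclib library and 1 and 0 in the DMSO libraries, where a count of 0 allows up to 0.86 to 1.15 CPM (3 counts per library), and it was not tested. MYLIP was at 15.6, 15.7 and 17.2 CPM with palbociclib and 16.3 and 19.2 CPM with DMSO (-0.17, adjusted p = 0.444). The 24 tested synthesis, sensing and uptake genes had a median of 0.03, with 7 higher and 5 lower, beside 0.82 for ABCA1 and -0.17 for MYLIP. Calls of 7 genes (ACAT2, PMVK, FDPS, MSMO1, INSIG2, NPC1 and ABCA1) held under all 11 alternatives, while SQLE, SC5D, INSIG1, NPC2, FDFT1 and EBP lost theirs under at least 1, with adjusted p of up to 0.206, 0.13, 0.0813, 0.17, 0.155 and 0.0905.

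**Figure D2:**
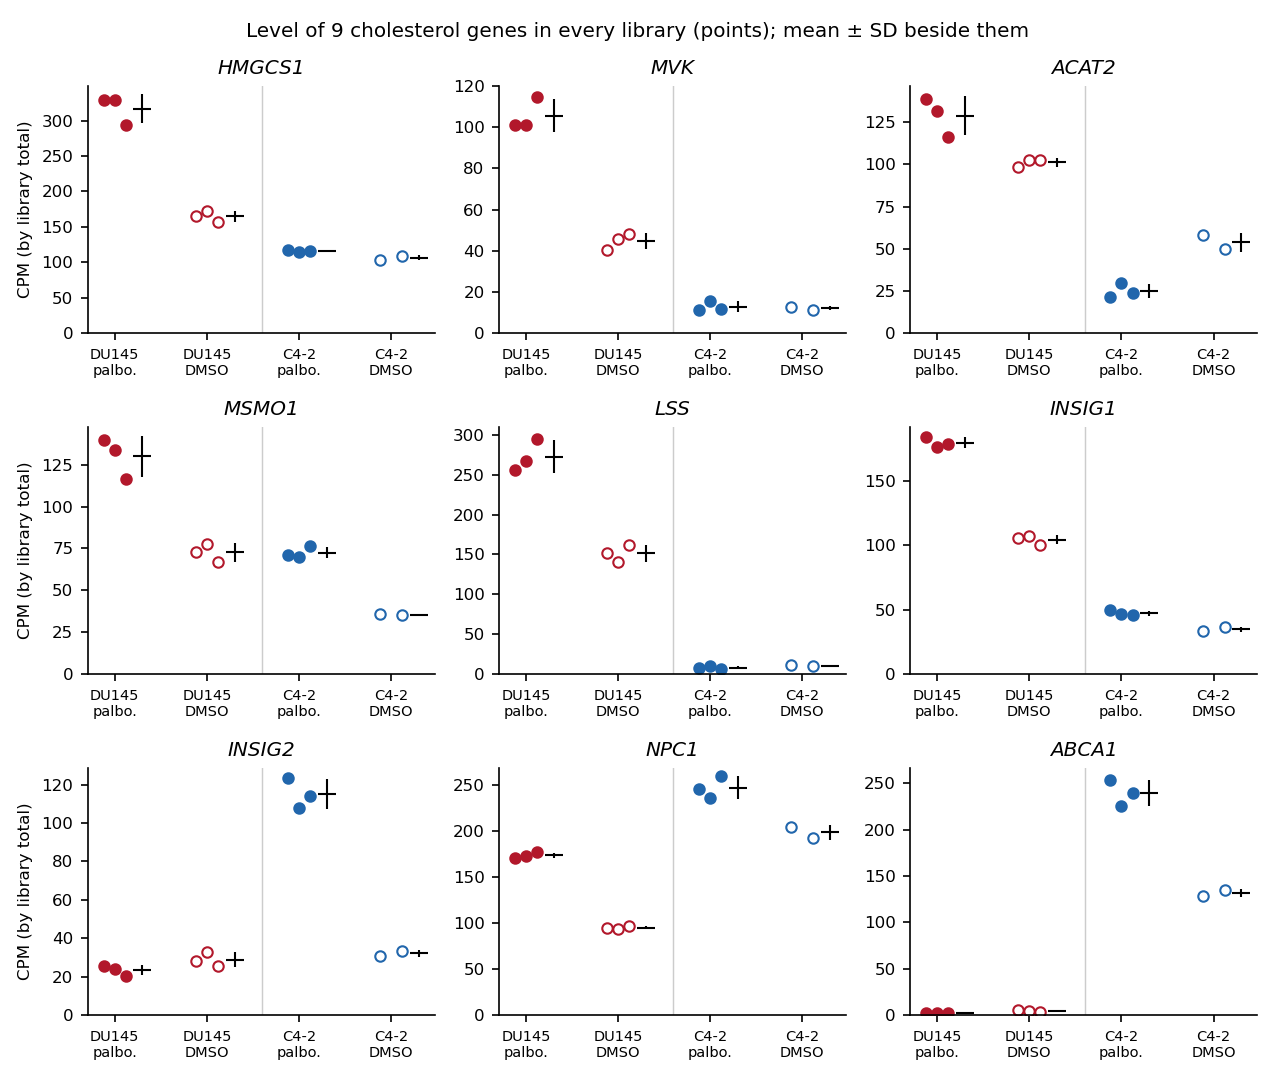
Level of 9 genes (CPM, counts scaled by library total, axes from 0) in every library, palbociclib filled and DMSO open, DU145 red and C4-2 blue, with mean ± SD beside the points. HMGCS1, MVK and LSS separate by treatment in DU145. Their C4-2 points look close on axes that also span the higher DU145 levels. The C4-2 log2 fold changes of these 3 genes were 0.08, 0.03 and -0.47, none of them called. ACAT2 moves in opposite directions, and INSIG2 and ABCA1 are high in C4-2 palbociclib libraries at 108 to 124 and 225 to 254 CPM.

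The difference in response between the lines was tested by the interaction of line and treatment over all 11 libraries, expressed as the DU145 change minus the C4-2 change. It was positive and passed the test for 19 of 28 genes and negative for 2, whereas 33.4% of all 18139 tested genes were called, with 18.4% of the tested genes positive and 15.0% negative. Only 11943 genes were tested in C4-2 alone, so the share over all genes includes many with few C4-2 counts. Of the 28 members, 26 were tested in C4-2 alone, so the 2 sets are unlike in this. The median interaction was 0.74 over the 27 genes other than ABCG1, whose fitted value rests on 1 count in C4-2, beside -0.02 over all tested genes. Since both lines were scaled together in that fit, its values can differ a little from the difference of the separate fits, and since each line has its own table, the test compares changes within tables and not levels across them.

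All 8 enzymes from acetyl-CoA to squalene had a higher change in DU145, with ACAT2 (1.57, SE 0.16, adjusted p = 1.2e-09), MVK (1.27, SE 0.24, adjusted p = 8.8e-05) and MVD (1.15, SE 0.16, adjusted p = 1.03e-06) in the lead and IDI1 lowest (0.56, SE 0.15, adjusted p = 0.00316). From squalene to cholesterol 7 of 10 passed, among them EBP (1.55, SE 0.24), LSS (1.38, SE 0.26) and DHCR7 (0.94, SE 0.12). HSD17B7 (0.90, adjusted p = 0.0115) rested on C4-2 DMSO replicate 1, without which it was 0.51 (adjusted p = 0.383). MSMO1 was the synthesis gene with the smallest difference, -0.09 (SE 0.15, adjusted p = 0.714), and CYP51A1 (0.38, SE 0.27, adjusted p = 0.323) did not pass. TM7SF2, with 6 to 13 counts in each C4-2 library, had a difference of -1.12 (SE 0.48, adjusted p = 0.0713).

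NPC1 (0.66, SE 0.10), NPC2 (0.59, SE 0.12) and INSIG1 (0.45, SE 0.13, adjusted p = 0.00767) also had the higher change in DU145, although each rose in both lines. Without C4-2 DMSO replicate 2 the difference for INSIG1 was 0.41 (adjusted p = 0.0634). INSIG2 had the most negative difference of all members, -2.04 (SE 0.17, adjusted p = 1.54e-11), followed by ABCA1 at -1.86 (SE 0.19, adjusted p = 1.69e-09). These 2 genes were the members called lower in DU145 and higher in C4-2. The reverse, higher in DU145 and lower in C4-2, was called for ACAT2, FDFT1 and EBP. SQLE, MSMO1, SC5D, INSIG1, NPC1 and NPC2 were called higher in both. Within the export side, MYLIP had a difference of 0.83 (SE 0.23, adjusted p = 0.00514; 0.73 and adjusted p = 0.0536 without C4-2 DMSO replicate 2), opposite in sign to ABCA1, and ABCG1 could not be judged.

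**Figure D3:**
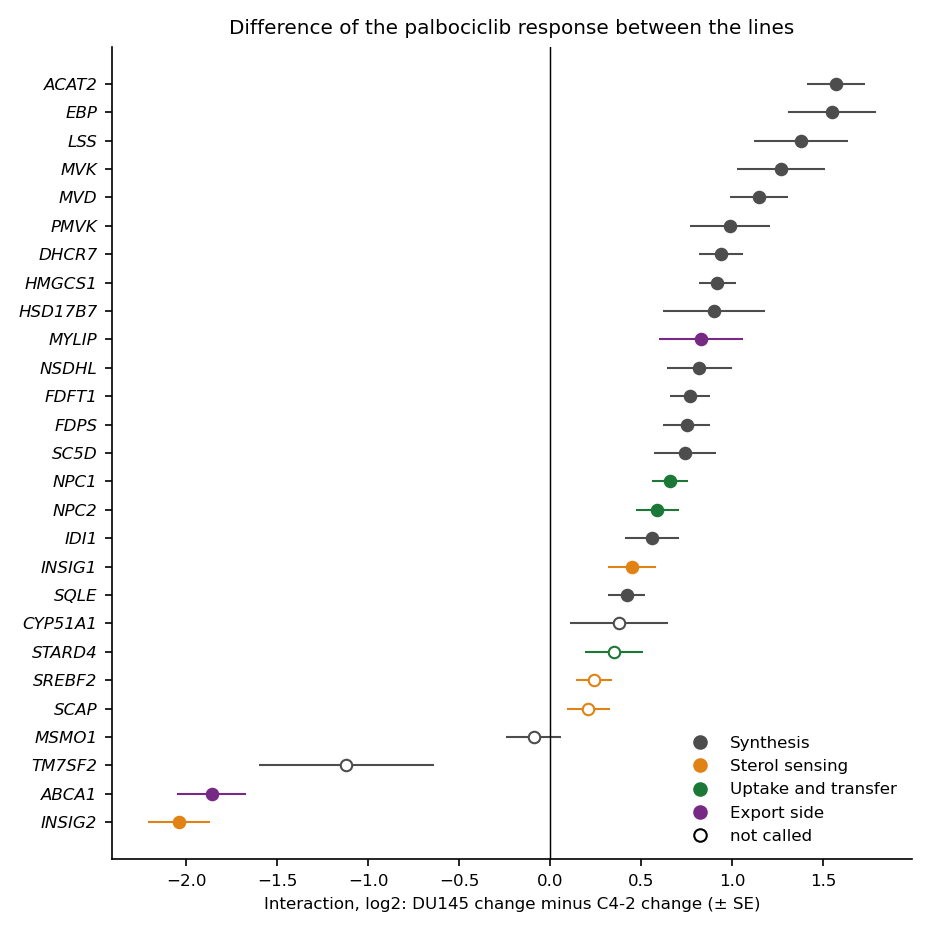
Interaction (DU145 change minus C4-2 change, log2, ± SE) for 27 members (ABCG1 has no SE, with 1 count in all of C4-2), coloured by role, filled where the adjusted p was below 0.05. Most synthesis genes lie between 0.42 and 1.57, MSMO1 near 0, and ABCA1 and INSIG2 at -1.86 and -2.04.

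Per kilobase of gene length, with the length from the DU145 table for both lines, the members spanned a wide range of levels. In DU145 with DMSO the order began with DHCR7 (62.7 ± 3.25 CPM per kilobase, SD, n = 3) and FDFT1 (62.4 ± 2.59), which did not differ beyond their spread, followed by SREBF2 (42.5 ± 1.88) and EBP (41.2 ± 3.95), which did not either. It ended with MYLIP (2.86 ± 0.372), TM7SF2 (1.68 ± 0.222) and ABCA1 (0.399 ± 0.0646). In C4-2 with DMSO it began with SQLE (30.4 ± 0.457, n = 2), NPC2 (28.5 ± 0.643) and HMGCS1 (22.7 ± 0.856) and ended with LSS (1.44 ± 0.092), TM7SF2 (0.628 ± 0.0628) and ABCG1 (0.0234 ± 0.0331), while ABCA1 stood at 11.6 ± 0.372. ABCG1, at 5.68 ± 0.259 CPM per kilobase in DU145 with DMSO, stood far above ABCA1 there, and the order of the 2 transporters was the opposite in C4-2. Levels of the lines come from tables counted separately and were not tested against each other.

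**Figure D4:**
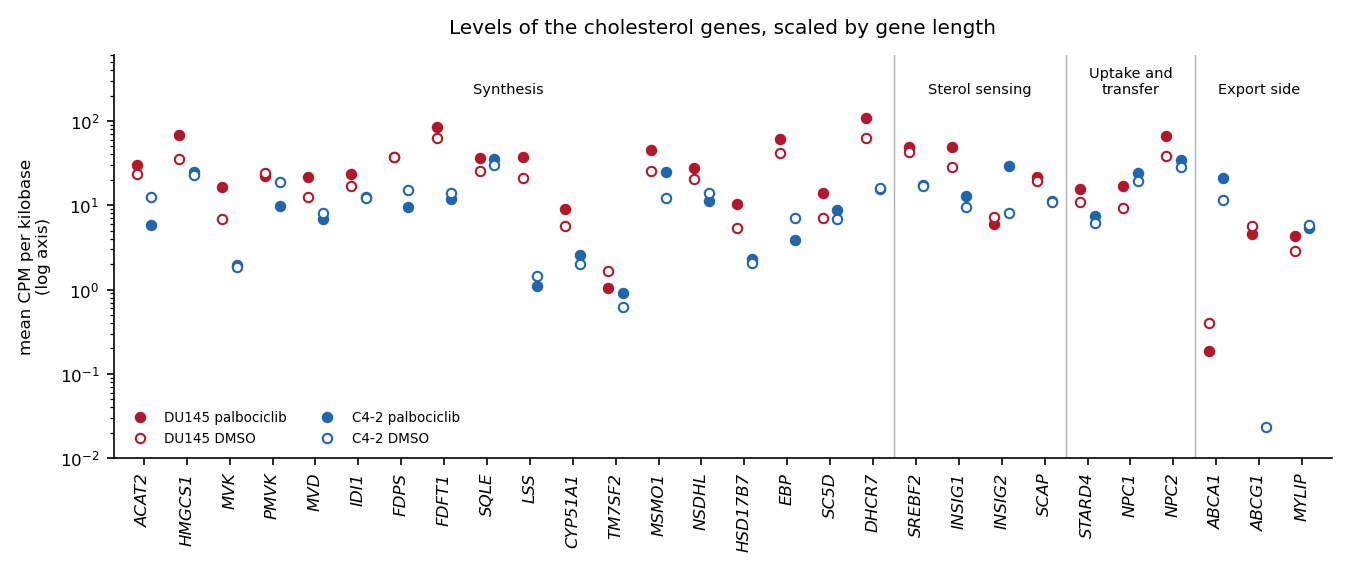
Mean level of the 28 genes (CPM per kilobase, log axis) with palbociclib (filled) and DMSO (open) in DU145 (red) and C4-2 (blue). ABCA1 with DMSO lies at 0.399 CPM per kilobase in DU145 and 11.6 in C4-2, levels of separate tables that were not tested; ABCG1 in C4-2 with palbociclib was at 0 and is not drawn.

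Other genes of the pathway were read from 5 lists. Their counts stand beside the shares over all tested genes, which were 28.8% higher and 29.2% lower in DU145, 25.2% higher and 26.6% lower in C4-2, and 18.4% positive and 15.0% negative for the interaction. Among 12 fatty acid genes driven by SREBP1, 9 rose and 1 fell in DU145, with LPIN1, a phosphatidate phosphatase (0.89, SE 0.07), SCD, the stearoyl-CoA desaturase (0.75, SE 0.05), and ACSS2, an acetyl-CoA synthetase (0.67, SE 0.07), first. In C4-2, 2 of the 12 rose and 4 fell, with SCD higher (0.65, SE 0.05) and FADS2, a fatty acid desaturase (-0.63, SE 0.06), and FASN, the fatty acid synthase (-0.46, SE 0.07), lower. LPIN1 and ACSS2 had uncalled changes of 0.22 and 0.12 there. FADS2 (0.62, SE 0.07) and FASN (0.22, SE 0.07, adjusted p = 0.0178) rose in DU145. The interaction was positive and passed for 9 of the 12, with a median of 0.35 over the list, and the other three were not called. It was 1.28 (SE 0.10, adjusted p = 1.31e-11) for FADS2 and 0.13 (SE 0.08, adjusted p = 0.19) for SCD. The isoprenoid branch, which starts from the same intermediates, had 6 of 9 genes higher and 2 lower in DU145 and 4 higher and 2 lower in C4-2, with GGPS1, geranylgeranyl diphosphate synthase, at 1.01 (SE 0.11) in DU145 and 0.70 (SE 0.21) in C4-2. FNTA, a prenyltransferase subunit (0.63, SE 0.08), and DHDDS, which makes dolichol precursors (0.58, SE 0.08), rose in DU145 and had uncalled changes of 0.23 and 0.12 in C4-2. Of the ubiquinone genes, PDSS2 rose in both lines (0.43 in DU145 and 0.81 in C4-2) and COQ2 fell in both (-0.60 in DU145 and -1.01 in C4-2), while PDSS1 had an uncalled 0.19 in DU145 and fell in C4-2 (-1.25, SE 0.24). The list's median was 0.37 in DU145 and 0.23 in C4-2.

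Of the 11 SREBP machinery and sterol-regulated degradation genes, 4 were higher and 5 lower in DU145, where 28.8% and 29.2% of all tested genes were. SREBF1, the second SREBP gene, rose by 0.67 (SE 0.08), whereas ERLIN2 (-0.80, SE 0.08) and ERLIN1 (-0.48, SE 0.07), endoplasmic reticulum proteins that act with INSIG in protein degradation, fell. In C4-2, 3 of 11 rose and 2 fell. TMEM97, a sterol-regulated membrane protein that binds NPC1, had a log2 fold change of 0.16 (adjusted p = 0.0775) in DU145 and fell by 1.29 (SE 0.15) in C4-2, an interaction of 1.49 (SE 0.17, adjusted p = 2.04e-08). SREBF1 and ERLIN2 were not called in C4-2, with 0.19 and 0.02, and their interactions passed (0.51, adjusted p = 0.0101, for SREBF1 and -0.78, adjusted p = 5.91e-05, for ERLIN2). ERLIN1 fell in C4-2 as well (-0.43, SE 0.07), and UBE2G2, a ubiquitin-conjugating enzyme of the same degradation route, rose by 0.20 (SE 0.06) in DU145 and by 0.35 (SE 0.08) in C4-2. The list's median was 0.09 in DU145 and 0.04 in C4-2. Of 10 LXR receptors and targets, 3 rose and 3 fell in DU145, whereas 2 of the 8 tested in C4-2 fell and the other six were not called. The list's median was -0.04 in DU145 and -0.02 in C4-2. NR1H3, the gene of LXR alpha, fell in both, with log2 fold changes of -1.27 (SE 0.09) in DU145 and -1.09 (SE 0.38, adjusted p = 0.0149) in C4-2, and its interaction of -0.15 did not pass (adjusted p = 0.857). Its partner RXRA fell by 0.38 (SE 0.08) in DU145 and by 0.45 (SE 0.09) in C4-2. LPCAT3, a phospholipid acyltransferase, rose by 0.41 (SE 0.09) in DU145 and had an uncalled -0.24 in C4-2. The rise of ABCA1 in C4-2 was measured in the same libraries as the falls of NR1H3 and RXRA, and a link between them was not tested.

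Genes of esterification, lysosomal release and transfer counted 3 higher and 3 lower of 13 tested in DU145, and 6 higher and 2 lower of 12 tested in C4-2, with a median of -0.12 in DU145 and 0.25 in C4-2. The DU145 counts were no larger a share than over all tested genes (28.8% higher and 29.2% lower), and in C4-2 the shares over all genes were 25.2% and 26.6%. LAMP2, a lysosomal membrane protein that binds cholesterol, rose by 0.71 (SE 0.07) in DU145 and by 0.32 (SE 0.04) in C4-2. LIPA, the lysosomal acid lipase that frees cholesterol from esters, had a change of -0.12 (adjusted p = 0.174) in DU145 and rose by 0.70 (SE 0.08) in C4-2, an interaction of -0.79 (SE 0.13, adjusted p = 7.65e-06). NCEH1, a neutral cholesterol ester hydrolase, had a change of -0.14 (adjusted p = 0.22) in DU145 and fell by 0.98 (SE 0.06) in C4-2. SCARB2, a lysosomal membrane protein, had an uncalled 0.08 in DU145 and rose by 0.67 (SE 0.04) in C4-2. OSBPL2, a lipid transfer protein, fell by 0.47 (SE 0.09) in DU145 and rose by 0.38 (SE 0.13, adjusted p = 0.0107) in C4-2, an interaction of -0.82 (SE 0.17, adjusted p = 0.000254). STARD3, a sterol transfer protein of late endosomes, rose by 0.33 (SE 0.08) in DU145 and had an uncalled 0.24 in C4-2.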

How the data were processed

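Transcripts were measured by RNA sequencing in 12 libraries of 4 groups with 3 libraries each. The authors deposited raw read counts per gene, 1 table per line. The C4-2 counts were made, per the file headers, by featureCounts 2.0.1 from read pairs on exons (annotation Ensembl 107), ignoring strand. How the deposited DU145 counts were made is not given in the sources used here. Per the submitters' processing notes the genome build is hg38, and gene coordinates and gene lengths, another deposited column, are those of the DU145 table. The DU145 column names were matched to libraries by treatment and number. C4-2 DMSO replicate 3 held only zeros and was left out, so 11 libraries were used. All 37 mitochondrial genes were at 0 in the C4-2 table.

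Tests used edgeR 4.0.16 under R 4.3.3 (filterByExpr, TMM, quasi-likelihood F test, Benjamini-Hochberg over all tested genes, threshold 0.05), each line alone and then jointly with an interaction over identifiers in both tables. The code was tested on simulated data. SE is the log2 fold change over the root of F, not given where a group averaged under 5 counts. Intervals and limits from counts cover counting error only. The members and lists were chosen with earlier results of these data known. All 28 members are named, and up to 3 called genes with the smallest adjusted p from each pathway list per line; a list gene named for one line is also given in the other. Alternatives were RLE size factors, library totals, no filter, a stricter filter (minimum count 50), DESeq2 1.42.0, the replicate block, leaving out each library, and leaving out both DU145 libraries numbered 3, which differed most from the others (chi-square over its degrees of freedom 5.41 to 8.34, against 2.36 and 2.37 between the other replicates). The result of 1 further marker list is not reported here.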

Additional observations from a re-analysis of the deposited data

Results flagged for a closer look

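The response to palbociclib differed between the lines, by the interaction test, for 21 of the 28 genes. The DU145 change minus the C4-2 change (log2) was positive for ACAT2 (1.57), EBP (1.55), LSS (1.38), MVK (1.27), MVD (1.15), PMVK (0.99), DHCR7 (0.94), HMGCS1 (0.92), HSD17B7 (0.90), MYLIP (0.83), NSDHL (0.82), FDFT1 (0.77), FDPS (0.75), SC5D (0.74), NPC1 (0.66), NPC2 (0.59), IDI1 (0.56), INSIG1 (0.45) and SQLE (0.42). It was negative for ABCA1 (-1.86) and INSIG2 (-2.04). Groups held 2 or 3 libraries, too few to test single values for a library far from the others.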

How the results depend on the processing

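No member changed direction with a call under any alternative run. Of the calls, 23 of 26 in DU145, 7 of 13 in C4-2 and 18 of 21 interactions held under all alternatives that gave a value. Calls were gained under at least 1 alternative for MVD (replicate block) and NSDHL in C4-2, and for SREBF2 (replicate block, adjusted p = 0.0201, and 3 others), STARD4 and TM7SF2 in the interaction. The DU145 counts of 22 higher and 4 lower ranged from 20 to 22 and from 3 to 4 when 1 library was left out. The C4-2 counts of 8 higher and 5 lower ranged from 4 to 7 and from 4 to 5, with 4 higher without C4-2 DMSO replicate 1, a fit that assumes the lone DMSO library varies like the other group. With DESeq2, 4 C4-2 members were called higher, and over all genes 1800 higher and 1993 lower in place of 3011 and 3173; the cause was not tested. The interaction count of 19 positive ranged from 17 to 20, and that of 2 negative did not move when 1 library was left out. With the replicate block the member counts were 22 and 4 in DU145, 7 and 5 in C4-2 and 20 and 2 for the interaction. In C4-2 that block leaves palbociclib replicate 3 without a DMSO library, so it adds nothing to the change estimated there. Same-numbered DU145 libraries deviated together with correlations of 0.02, 0.0358 and 0.128. Crossed DU145 pairs that hold a number 3 gave -0.0874 to -0.0503, and those of numbers 1 and 2 gave 0.0612 and 0.0364. Same-numbered C4-2 libraries gave 0.00677 and 0.0292, but deviations within a group of 2 mirror each other, so the check cannot tell there. Whether the numbers pair libraries is not settled by these values. In C4-2 depth limits the members with few counts, such as MVK, LSS, CYP51A1, HSD17B7 and TM7SF2.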
